A study of Homo sapiens with 4 samples.

Results

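The mRNAs of 3 families of splicing proteins, the hnRNP, SR and SF3 proteins, were followed through a polysome gradient of HEK293T cells. Members were the rows of the count table whose symbol starts with HNRNP, SRSF, SF3A or SF3B and that held 30 or more counts summed over the 4 libraries. Of 48 such rows 42 passed, 21 of 27 hnRNP rows and all 12 SR and 9 SF3 rows, out of 7527 genes at this minimum and 19948 symbols in all. The rows left out were HNRNPUL2 with 29 counts, HNRNPCL1 with 13, HNRNPCL2 with 5, HNRNPCL4 with 2, and HNRNPCL3 and HNRNPUL2-BSCL2 with none. HNRNPUL2 shares 45.7% of its exon bases with HNRNPUL2-BSCL2 on the same strand, and the effect on its count was not tested. The member nearest the minimum from above was SRSF1 with 36 counts. The rule used the name and the count summed over all pools, although the families were proposed with earlier results of these data known. The sum includes the heavy polysome library, and SRSF1, HNRNPH2, HNRNPL and HNRNPLL held fewer than 30 counts outside it. Their heavy polysome values are therefore not independent of the rule.

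HEK293T is a human embryonic kidney line, and the labels name no mutation or transgene beyond the line itself. The cells received cycloheximide, which stalls ribosomes on their mRNAs, at 100 ug/mL for 10 min, and the lysate was spun through sucrose from 10% to 50%. The gradient was divided into a free, a monosome, a light polysome and a heavy polysome pool, and the mRNA of each, selected by cap and poly(A) tail, went into 1 direct RNA nanopore library. No agent other than cycloheximide is named in the labels, and every pool comes from cycloheximide-treated cells.

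Pre-mRNA splicing removes introns in the nucleus. hnRNP proteins coat nascent transcripts and often repress nearby splice sites, while SR proteins, named for their arginine and serine repeats, bind exonic enhancers through RNA recognition motifs and recruit the spliceosome. SF3a and SF3b are the protein complexes of the U2 snRNP, the particle that recognises the branch point of an intron. Several hnRNP and SR proteins also shuttle to the cytoplasm and act on mRNA export, stability and translation, and many of them limit their own amounts through unproductive splicing of their own transcripts.

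The libraries held 355509 counts (free), 1329334 (monosome), 1499401 (light polysome) and 1564531 (heavy polysome). Every member had 23 or more counts in the heavy polysome library, whereas 4 members had none and 17 had 10 or more in the free library, so depth limits the free pool most. Of the markers used to check the line, VIM had 850 counts over the libraries, KRT18 285, LIN28B 98, KRT8 51, NEFM 40 and PAX2 6. The hepatocyte and leukocyte markers ALB, PTPRC and CD3E had none, HBB had 4 and COL1A1 had 2. Since each pool has 1 library, the spread between replicates is unknown, no p-value is given, and intervals cover 95% counting error only. More cells holding an mRNA and more of it per cell cannot be told apart in a lysate, and neither can a larger share of a pool and fewer other mRNAs in it.

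Among the rows of the hnRNP family, 3 hold nearly the same coding sequence, which bears on what their counts stand for. HNRNPA1 (chromosome 12, 54280193 to 54287088, plus strand) packages nascent RNA and represses exons. HNRNPA1L2 is an intronless coding copy on chromosome 13 (52642425 to 52643796, plus strand). HNRNPA1P48, a row on chromosome 16 (51553436 to 51647132, plus strand), is a synonym of HNRNPA1L3 in RefSeq. In the GENCODE 29 models on hg38, 960 coding bases of HNRNPA1 aligned without gaps with HNRNPA1L2 and differed at 15 of them (98.4% identity), and 825 aligned with HNRNPA1P48 and differed at 6 (99.3%). The longest identical stretches had 174 and 373 bases.

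The counts of the copies followed those of HNRNPA1 from the monosome pool onward. HNRNPA1 had 80, 2206, 2175 and 9367 counts in the free, monosome, light polysome and heavy polysome libraries, HNRNPA1L2 had 95, 1785, 1751 and 6788, and HNRNPA1P48 had 134, 1965, 1953 and 7940. The ratio of HNRNPA1L2 to HNRNPA1 was 0.809 (0.760 to 0.862) in the monosome, 0.805 (0.756 to 0.858) in the light polysome and 0.725 (0.702 to 0.748) in the heavy polysome library. In the free library it was 1.19 (0.873 to 1.62), and the ratio of HNRNPA1P48 to HNRNPA1 was 1.68 (1.26 to 2.24) there, against 0.848 to 0.898 in the other pools. HNRNPA1 was therefore the lowest of the 3 rows in the free library, at 80 to 134 counts a row, and the highest in the other pools. RefSeq names a further 75 pseudogenes of HNRNPA1, none of them under that name in the table. The counting of reads that align to several copies was not given in the sources used here, so the 3 rows are uncertain as separate measurements, and whether reads were counted in more than one of them was not tested.

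**Figure D1:**
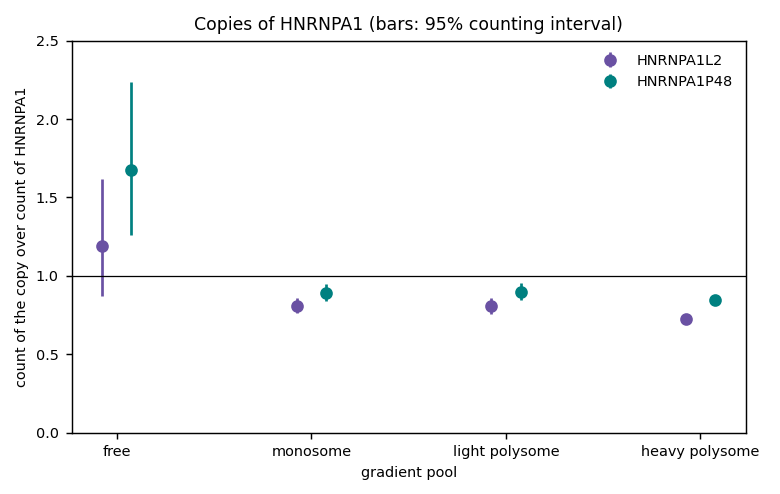
Count of HNRNPA1L2 and HNRNPA1P48 divided by the count of HNRNPA1 (vertical axis) in each gradient pool (horizontal axis), with bars for the 95% counting interval. Both ratios sit between 0.725 and 0.898 in the monosome and polysome libraries and above 1 in the free library, where the interval of HNRNPA1L2 includes 1.

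The study concerns TOP mRNAs, which start with C followed by a run of pyrimidines, so the annotated first bases of the members were read. RefSeq starts (GRCh38.p14) were found for 38 of the 42 members, and HNRNPA1, HNRNPA1P48, SF3B3 and SRSF2 had no entry. A start with C as its first base and 5 or more C or T in an unbroken run, read on the strand of the gene, occurred in 3 of the 38, in 521 of 6131 tested genes with an entry (8.50%) and in 4.07% of all starts in the table. Those 3 starts are shown with the run in capitals. Below them stand HNRNPA2B1, SRSF3 and SF3B5, members at the ends of the comparisons below, whose annotated starts do not meet this definition. SF3B5 opens with A, and an unbroken stretch of C and T that begins with C follows it.
HNRNPA0 (chr5:137754344-137754363, minus strand): CTCTTTgtgtggtgcccaga
SRSF9 (chr12:120469729-120469748, minus strand): CCCTTCgcttccgctccgcg
SF3A2 (chr19:2236824-2236843, plus strand): CTTTCTTTgcccgccgttcg
HNRNPA2B1 (chr7:26200727-26200746, minus strand): agtagcagcagcgccgggtc
SRSF3 (chr6:36594362-36594381, plus strand): CCgccatttcgtggacgccg
SF3B5 (chr6:144095554-144095573, minus strand): actctcctgtaaaacgctag

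The members with such starts did not lie together. Values are log2 ratios of shares between pools, after adding 0.5 to each count, set to 0 at the median of the 7527 tested genes. In heavy over light polysome HNRNPA0 lay at 2.30, SF3A2 at 0.71 and SRSF9 at -0.20, and the tested genes with such a start had a median of -0.38, or -0.24 over the 476 that do not code for ribosomal proteins. An annotated start is not the start used in these cells, and the match is a description of letters.

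As shares of all counts in a library, the families spread differently over the pools. The 21 hnRNP rows together took 0.141% of the free library (0.129 to 0.154), 0.583% of the monosome library (0.570 to 0.596), 0.607% of the light polysome library (0.595 to 0.620) and 3.14% of the heavy polysome library (3.11 to 3.16). The 12 SR rows took 0.0447% (0.0380 to 0.0522), 0.0955% (0.0903 to 0.101), 0.236% (0.228 to 0.244) and 0.585% (0.573 to 0.597). The 9 SF3 rows took 0.0304% (0.0249 to 0.0367), 0.0579% (0.0539 to 0.0622), 0.134% (0.128 to 0.140) and 0.145% (0.139 to 0.151). All of these are exact Clopper-Pearson intervals. For the hnRNP sum they take each count as a separate read, and whether reads were counted in several HNRNPA1 rows was not tested. The summed hnRNP share differed little between light polysome and monosome and was several times larger in the heavy pool, the SR share climbed at each step, and the SF3 share was nearly level between light and heavy polysome. The 3 HNRNPA1 rows made up about as much of the hnRNP share in the heavy pool (1.54%) as the other 18 rows (1.596%), but most of it in the light polysome pool (0.392%, beside 0.215% for the other rows) and the monosome pool (0.448%, beside 0.135%). The share of the HNRNPA1 rows was thus lower in light polysome than in monosome, and that of the other 18 rows together was higher.

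**Figure D2:**
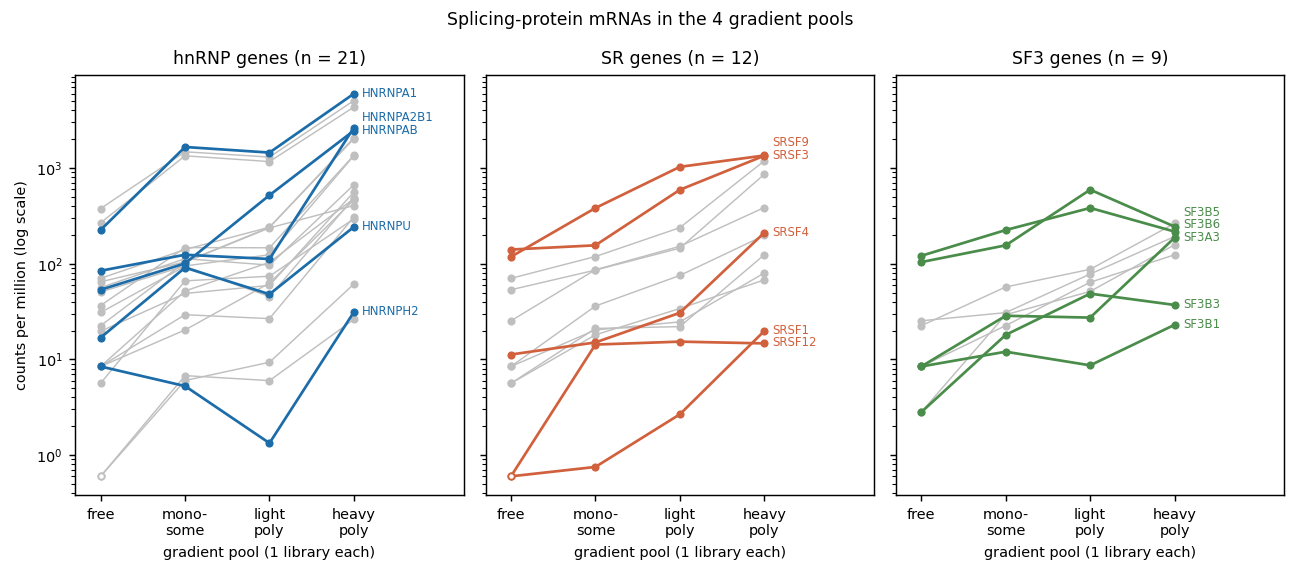
CPM, each count scaled by its library's total (log scale), of each member in the 4 gradient pools, with 1 panel per family and 1 line per member. Open circles on the lowest line stand for a count of 0, coloured lines are the named members, and HNRNPA2B1 sits between 84.4 and 124 CPM in 3 pools and at 2646 CPM in the heavy polysome pool.

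Between heavy and light polysomes the hnRNP mRNAs lay far toward the heavy end. Members at least 2-fold from the median gene, with a counting interval on that side, were called higher or lower. Called higher were 20 of 21 hnRNP, 6 of 12 SR and 3 of 9 SF3 members, 29 of 42 together, against 26.0% of all tested genes. HNRNPH2, HNRNPL, HNRNPLL and SRSF1, all called higher, passed the minimum only through their heavy polysome counts. Without HNRNPA1L2 and HNRNPA1P48, 18 of 19 hnRNP members were called higher. Called lower were 2 SF3 members, against 28.3% of all tested genes. The family medians were 2.19 for hnRNP, 0.94 for SR and 0.71 for SF3 mRNAs, where the median gene, at 0 by construction, took a share 1.51-fold higher in the heavy than in the light library. Of the 42 members 37 lay above the median gene, against 49.9% of all tested genes.

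HNRNPA2B1 (chromosome 7, 26173057 to 26201529), a relative of HNRNPA1 that also carries RNAs in the cytoplasm, was the extreme of the family. It had 84.4 CPM in the free, 124 in the monosome, 112 in the light polysome and 2646 in the heavy polysome library. The first 3 pools lay close together, and the heavy pool stood apart. In heavy over light polysome it lay at 3.97 (3.75 to 4.20). HNRNPH2, which binds runs of G, lay at 3.66, but its interval ran from 2.03 to 7.05 on 49 heavy and 2 light polysome counts. It shares 16.3% of its exon bases with RPL36A-HNRNPH2, a gene on the same strand with no count in any library.

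Several abundant members showed nearly the same step. HNRNPK (chromosome 9, 83968083 to 83980616), which binds runs of C through KH domains, had 50.6, 94.8, 124 and 1349 CPM from free to heavy polysome and lay at 2.85 (2.63 to 3.08). HNRNPC, which binds runs of U and shields intronic repeats from being spliced in, had 64.7, 105, 240 and 2076 CPM and lay at 2.52 (2.36 to 2.68). HNRNPD, also known as AUF1, which binds AU-rich elements and directs decay, lay at 2.48 (2.32 to 2.64) and HNRNPA3 at 2.62 (2.42 to 2.83). Neighbours in this order had overlapping intervals, so it is not resolved at this depth. HNRNPR at 2.93 (2.48 to 3.45), HNRNPH1 at 2.83 (2.48 to 3.22) and HNRNPH3 at 2.65 (2.34 to 2.98) overlapped most of them too. HNRNPA0 at 2.30, HNRNPDL at 2.19 and HNRNPLL at 2.08 lay just below.

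A lower group of hnRNP mRNAs lay between 1.30 and 1.74. It held the 3 HNRNPA1 rows at 1.30 to 1.45, HNRNPM at 1.40 (1.10 to 1.72), HNRNPL, which binds CA repeats, at 1.48 (0.47 to 2.76), HNRNPF at 1.62 (1.37 to 1.88), HNRNPAB at 1.65 (1.54 to 1.77) and HNRNPU at 1.74 (1.38 to 2.13). HNRNPA1 itself had 225, 1659, 1451 and 5987 CPM from free to heavy polysome, the highest of all members in each of the last 3 pools. The interval of HNRNPA1 (1.39 to 1.52) did not overlap that of HNRNPA2B1, its close relative. HNRNPL shares 22.7% of its exon bases with AC008982.1, a gene on the same strand with no count in any library. HNRNPUL1, an HNRNPU-like protein, was the only hnRNP member not called, with 22.5, 104, 237 and 406 CPM and a value of 0.19 (-0.003 to 0.38).

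The SR mRNAs ranged from members near the hnRNP values, through members in between, to members near the median gene. SRSF4 (chromosome 1, 29147743 to 29181987), one of the longer SR proteins, had 11.3, 15.0, 30.7 and 211 CPM from free to heavy polysome and lay at 2.18 (1.74 to 2.67). SRSF7, an adapter for mRNA export, had 53.4, 85.8, 145 and 861 CPM and lay at 1.97 (1.77 to 2.19). SRSF2, known as SC35, a marker protein of nuclear speckles, had 70.3, 119, 238 and 1188 CPM and lay at 1.73 (1.56 to 1.90). In all of these the heavy pool was the highest by far and the other pools lay in gradient order. SRSF6 lay at 1.89 (1.37 to 2.48) and SRSF11 at 1.09 (0.56 to 1.67).

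SRSF3 and SRSF9 stood apart from them through their light polysome share. SRSF3 (chromosome 6, 36594353 to 36605600), the smallest member of the family and like SRSF7 an export adapter, had 141, 156, 592 and 1345 CPM and lay at 0.59 (0.48 to 0.71). SRSF9 (chromosome 12, 120461668 to 120469793), a close relative of SRSF1, had 118, 382, 1029 and 1352 CPM and lay at -0.20 (-0.29 to -0.10). Neither interval overlapped that of SRSF7. The exons of SRSF9 overlap those of GATC on the other strand over 41.2% of their bases, and GATC had 264 counts in all against 4209 for SRSF9. SRSF5, which had 25.3, 86.5, 152 and 387 CPM, lay at 0.75 (0.53 to 0.98) and was not called. SRSF10 (0.80) and SRSF8 (0.40), a retrogene copy related to SRSF2, were not called either, nor was SRSF12 at -0.65 (-1.55 to 0.25).

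SRSF1 (chromosome 17, 58003360 to 58007346), the founding SR protein, was barely counted. It had 0, 1, 4 and 31 counts from free to heavy polysome, which is 0, 0.752, 2.67 and 19.8 CPM, and lay at 2.16 (0.80 to 4.27). The annotated exons of SRSF1 share 88.5% of their bases with AC015813.2 on the same strand, a gene with 13 counts. The handling of reads that overlap several genes was not given in the sources used here, and the effect of this overlap on the count of SRSF1 was not tested.

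The SF3 mRNAs held the members called lower. SF3B5 (chromosome 6, 144094881 to 144095573), one of the small subunits of SF3b, had 104, 156, 594 and 244 CPM from free to heavy polysome and lay at -1.87 (-2.05 to -1.70). SF3B6 (chromosome 2, 24067584 to 24076443), known as p14, which sits at the branch point adenosine, had 121, 225, 383 and 217 CPM and lay at -1.41 (-1.61 to -1.22). Both peaked in the light polysome pool, unlike the hnRNP members. SF3B3 had 2.81, 18.1, 48.7 and 37.1 CPM from free to heavy polysome, lay at -0.98 (-1.51 to -0.47) and was not called. Its CPM intervals in light (38.2 to 61.2) and heavy polysome (28.15 to 47.9) overlapped, so its peak was not resolved at this depth.

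At the heavy end of the SF3 family was SF3A3 (chromosome 1, 37956975 to 37990921), a subunit of the SF3a trimer, with 8.44, 28.6, 27.3 and 187 CPM and a value of 2.17 (1.71 to 2.69). SF3B2 lay at 1.02 (0.65 to 1.42), and SF3B4, an RNA-binding subunit that touches the intron near the branch point, had 22.5, 57.2, 87.4 and 264 CPM and lay at 1.00 (0.72 to 1.30). SF3A2 had 25.3, 30.8, 78.0 and 192 CPM and lay at 0.71 (0.40 to 1.03), and it shares 20.3% of its exon bases with PLEKHJ1 on the other strand, a gene with 745 counts. SF3A1 lay at 0.36. SF3B1 (chromosome 2, 197389784 to 197435091), the large subunit that clamps the branch point and is mutated in some blood cancers, had 3, 16, 13 and 36 counts. That is 8.44 (1.74 to 24.7), 12.0 (6.88 to 19.5), 8.67 (4.62 to 14.8) and 23.0 CPM (16.1 to 31.9), and only the heavy polysome interval lay clear of the light polysome one. Its value of 0.78 (-0.13 to 1.86) was not called.

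**Figure D3:**
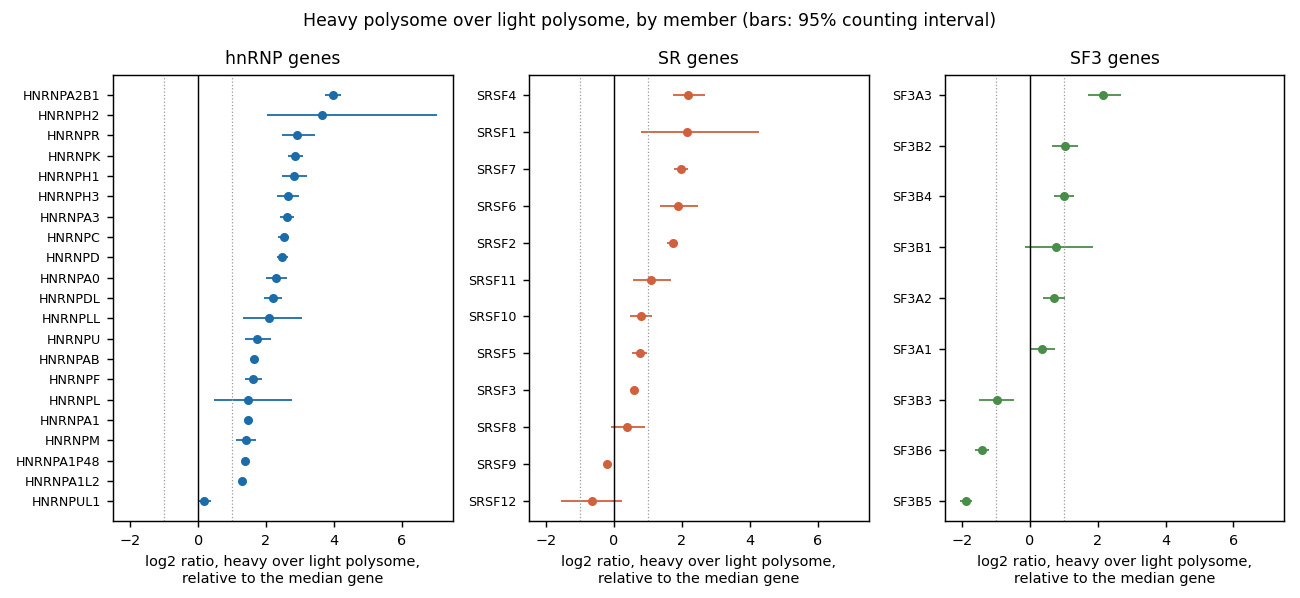
Log2 ratio of heavy over light polysome relative to the median gene (horizontal axis) for each member (vertical axis), with 95% counting intervals. Dotted lines mark 2-fold, and 20 of 21 hnRNP members lie beyond it on the heavy side while SF3B6 and SF3B5 lie beyond it on the light side.

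Against the monosome pool the hnRNP family split more widely. Called higher in heavy polysome over monosome were 11 hnRNP, 5 SR and no SF3 members, 16 of 42, against 21.0% of all tested genes. HNRNPLL and SRSF1, which passed the minimum only through their heavy polysome counts, were among them. Called lower were SRSF12, SF3B5 and SF3B6, against 27.0% of all tested genes. The median gene took a share 3.34-fold higher in the heavy polysome than in the monosome library, and as plain CPM ratios 38 members were called higher and none lower. SF3B5 had 244 CPM in the heavy polysome and 156 CPM in the monosome library, a plain ratio above 1, and the plain ratios of SRSF12 and SF3B6 were 1.02 and 0.963. The medians were 1.46 for hnRNP, 0.75 for SR and 0.46 for SF3 mRNAs, and 35 of 42 members lay above the median gene, against 50.0% of all tested genes.

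HNRNPAB (chromosome 5, 178204507 to 178211163), a member with editing and transcriptional roles, was the highest of all members in this pair. It had 53.4, 101, 520 and 2463 CPM from free to heavy polysome and lay at 2.86 (2.62 to 3.13). HNRNPA0 at 2.75 (2.23 to 3.39), HNRNPA2B1 at 2.67 (2.45 to 2.91) and HNRNPC at 2.57 (2.33 to 2.83) overlapped it. The other 7 hnRNP members called higher lay between 1.46 (HNRNPF) and 2.10 (HNRNPD). By contrast HNRNPA1 had 5987 CPM in the heavy polysome and 1659 CPM in the monosome library and lay at 0.11 (0.04 to 0.18), close to the median gene. HNRNPA1L2 at -0.05 and HNRNPA1P48 at 0.04, the rows with nearly its sequence, stood beside it.

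HNRNPU (chromosome 1, 244840638 to 244864560), a nuclear scaffold protein, was the lowest of the family. It had 16.9, 91.0, 48.0 and 243 CPM and lay at -0.33 (-0.62 to -0.02) in heavy polysome over monosome, with a lower CPM in the light polysome than in the monosome pool. HNRNPM at 0.41, HNRNPUL1 at 0.22 and HNRNPL at 0.15 were not called. In the SR family SRSF4 at 2.04 (1.42 to 2.80), SRSF2 at 1.58 (1.35 to 1.82), SRSF7 at 1.58 (1.31 to 1.88) and SRSF3 at 1.37 (1.16 to 1.58) were called higher, and so was SRSF1 on 31 counts in the heavy and 1 in the monosome library. SRSF9 lay at 0.08 (-0.06 to 0.23). SRSF3 and SRSF9, alike in their large light polysome share, thus lay apart here. In the SF3 family SF3B5 lay at -1.09 (-1.34 to -0.84) and SF3B6 at -1.79 (-2.02 to -1.57), and SF3A3 was the highest at 0.95 (0.48 to 1.499).

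The step from monosome to light polysome set the hnRNP family off in the other direction. Called lower in light polysome over monosome were 9 hnRNP, no SR and 2 SF3 members, 11 of 42, against 16.3% of all tested genes. Without HNRNPA1L2 and HNRNPA1P48, 7 of 19 hnRNP members and 9 of 40 members in all were called lower. HNRNPAB alone was called higher, at 1.38 (1.12 to 1.66), against 14.9% of all tested genes. The family medians were -0.99 for hnRNP, -0.03 for SR and -0.19 for SF3 mRNAs, and 15 of 42 members lay above the median gene, against 50.0% of all tested genes. These directions are relative to the median gene, which had a 1.98-fold higher share in the light polysome library, and as plain CPM ratios the hnRNP median was -0.0074, the SR median 0.95 and the SF3 median 0.80. HNRNPH1 lay at -2.03 (-2.48 to -1.60) with 45.4 CPM in the light polysome and 94.0 CPM in the monosome library, and HNRNPU at -1.90 (-2.35 to -1.47). The 3 HNRNPA1 rows lay at -1.19 to -1.17 and HNRNPA2B1 at -1.13. HNRNPDL (-1.21), HNRNPR (-1.12) and HNRNPH2, on 2 light polysome and 7 monosome counts, completed the hnRNP members called lower, and SF3A3 (-1.05) and SF3B1 (-1.45) were the SF3 members. SRSF3 and SF3B5, both at 0.94, lay just short of the call on the higher side. Relative to the median gene, the hnRNP mRNAs called lower here also lay above it in heavy over light polysome, so the light polysome pool was their low point among the 3 ribosome-bound pools. This comparison and the previous ones share libraries, so their values are not independent.

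**Figure D4:**
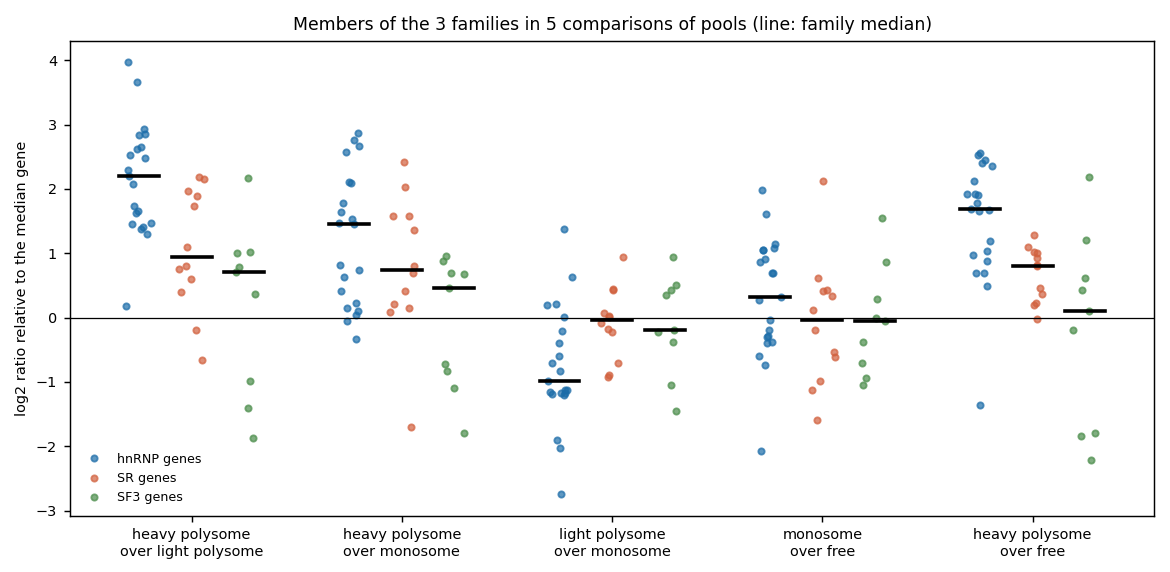
Log2 ratios relative to the median gene (vertical axis) of all members in 5 comparisons of pools (horizontal axis), coloured by family, with black lines at the family medians. The hnRNP median is the highest in heavy over light polysome (2.19) and the lowest in light polysome over monosome (-0.99), and values of the 4 members without a free count rest on the 0.5 added.

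Against the free pool few members could be resolved. In the free library 17 of 42 members held 10 or more counts, but 1095 of 7527 tested genes did, and 2348 held none. Calls depend on these counts, so members and all tested genes are not compared like with like here. In monosome over free, HNRNPA1 at 1.61 (1.29 to 1.96), HNRNPA1L2, HNRNPM and HNRNPU were called higher, against 5.13% of all tested genes, and SRSF3 was called lower at -1.13 (-1.57 to -0.64), against 4.57%. HNRNPA1P48, a row with nearly the sequence of HNRNPA1, lay at 0.70 (0.45 to 0.97) and was not called. The median gene took a share 2.41-fold higher in the monosome library, and SRSF3 had 156 CPM there and 141 CPM in the free library. No member was called lower with TMM scaling, a pseudocount of 1, a minimum of 10 counts, no minimum or a floor of 3 counts for genes without one, so the call of SRSF3 rests on the settings used. HNRNPM rests on 2 counts in the free library and HNRNPU on 6, with a lower bound of 0.0001 for HNRNPU. The free counts of SRSF3 and HNRNPA1 were 50 and 80. The 3 family medians lay between -0.05 and 0.33, and 21 of 42 members lay above the median gene, against 48.2% of all tested genes. Values of the 4 members without a free count rest on the 0.5 added. SRSF5 lay at 0.43 (-0.47 to 1.67), HNRNPA2B1 at -0.73 (-1.28 to -0.10), SF3B5 at -0.70 (-1.20 to -0.14) and SF3B6 at -0.39 (-0.84 to 0.12), none of them called.

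In heavy polysome over free the medians were 1.69 for hnRNP, 0.80 for SR and 0.10 for SF3 mRNAs, where the median gene took a share 8.26-fold higher in the heavy polysome library. Above it lay 36 of 42 members, against 49.8% of all tested genes. The 4 members without a free count are among the 36, and their values rest on the 0.5 added. Of these, HNRNPL, HNRNPLL and SRSF1 passed the minimum only through their heavy polysome counts. Called higher were 13 hnRNP members, SRSF2 at 1.01 and, on 247 heavy polysome counts and 1 free count, SF3B2, 15 of 42, against 6.36% of all tested genes, and with 1 count added in place of 0.5 the number was 26. Called lower were SF3B5 at -1.83 (-2.30 to -1.29) and SF3B6 at -2.22 (-2.67 to -1.71), against 15.3% of all tested genes. As plain CPM both were higher in the heavy polysome library, SF3B5 at 244 CPM against 104 CPM in the free library and SF3B6 at 217 CPM against 121 CPM. HNRNPAB at 2.44 (1.84 to 3.21) and HNRNPA3 at 2.12 (1.40 to 3.08) were among the hnRNP members called. Of the members without a count in the free library, HNRNPLL, a regulator of splicing in lymphocytes, had a share at least 7.27-fold higher in the heavy polysome library against a floor of 3 free counts, HNRNPL at least 3.10-fold, SRSF1 at least 2.35-fold and SRSF12 at least 1.74-fold. These bounds all lie below the fold of the median gene.

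A mean gradient position, the CPM of a gene weighted by 0, 1, 2 and 3 from free to heavy polysome, summarised the 4 pools. Its median was 2.64 over hnRNP, 2.43 over SR and 2.34 over SF3 members, and 2.25 over all tested genes. Above the median of all genes lay 20 of 21 hnRNP, 11 of 12 SR and 5 of 9 SF3 members. The hnRNP members ranged from 2.20 (HNRNPH2) to 2.79 (HNRNPA2B1), the SR members from 2.01 (SRSF12) to 2.82 (SRSF1) and the SF3 members from 1.74 (SF3B6) to 2.56 (SF3A3). HNRNPH2 and SRSF1 passed the minimum only through their heavy polysome counts. HNRNPA1 lay at 2.42, nearer the SR median than its own.

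Coding length is the property most directly tied to how many ribosomes fit on an mRNA, and it was not used to choose the members. It ran from 825 to 2568 nucleotides in the hnRNP family, from 492 to 1482 in the SR family and from 258 (SF3B5) to 3912 (SF3B1) in the SF3 family. Across 7465 tested genes with a coding length, heavy over light polysome went with length at a Spearman rho of 0.323, and genes share the libraries and are not replicates. Within the families rho was 0.01 over 21 hnRNP, 0.30 over 12 SR and 0.40 over 9 SF3 members.

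In heavy over light polysome the small SF3 subunits lay where other short mRNAs lay, and most hnRNP mRNAs lay above the median of genes of their length. SF3B5 at -1.87 and SF3B6 (375 nucleotides) at -1.41 in heavy over light polysome stood beside a median of -1.60 (quartiles -2.50 and -0.78) over the 1210 tested genes with under 600 coding nucleotides. SRSF3, with 492 nucleotides, lay at 0.59, above the upper quartile of that class. All 10 hnRNP and 7 of 9 SR members of 600 to under 1200 nucleotides lay above the median of genes of that length, 0.09 (quartiles -1.05 and 1.13). The HNRNPA1 rows are among these hnRNP members. All 12 members of 1200 to under 1800 nucleotides, 7 of them hnRNP, lay above the median of that class, 0.63 (-0.57 and 1.55). At 1800 nucleotides or more 3 of 4 hnRNP and 3 of 4 SF3 members lay above the class median of 0.24 (-0.65 and 1.09). In heavy polysome over monosome fewer did, with 7 of 10, 6 of 7 and 3 of 4 hnRNP members above the medians of these 3 classes in turn. SF3B1 and SF3B3, the members with the longest coding sequences at 3912 and 3651 nucleotides, lay at 0.78 and -0.98 in heavy over light polysome.

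**Figure D5:**
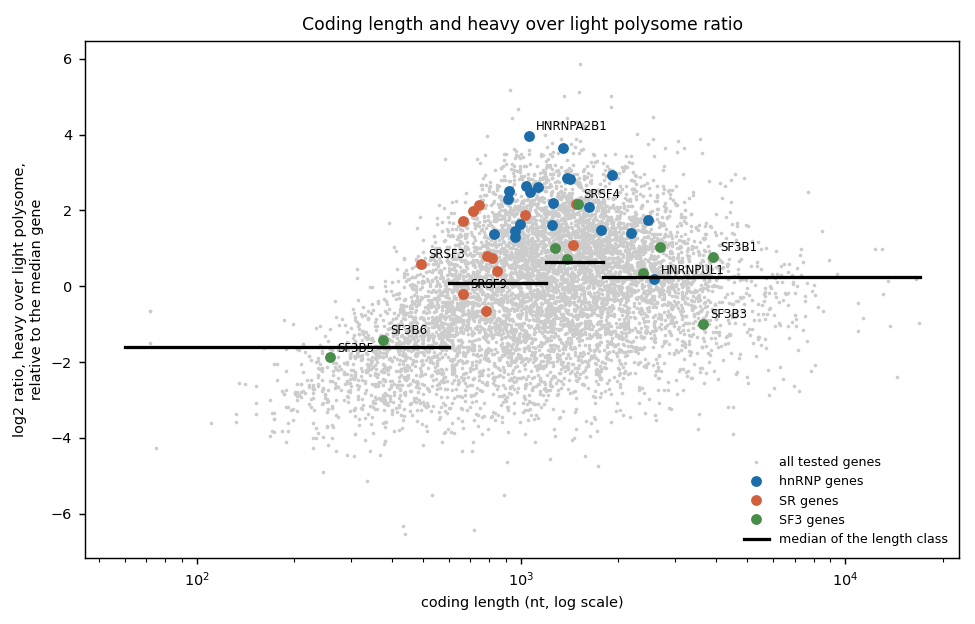
Log2 ratio of heavy over light polysome relative to the median gene (vertical axis) against coding length (horizontal axis, log scale) for all tested genes (grey) and the members (coloured by family), with black lines at the median of each length class. SF3B5 and SF3B6 sit near the short-gene median of -1.60, and the hnRNP members of 600 to under 1800 nucleotides all sit above the medians of their classes.

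As medians, other splicing genes lay below the hnRNP family in the comparisons of the heavy polysome pool, and above the median gene. A list of 43 further spliceosome components, regulators and their kinases and importers had 41 tested genes, with a median of 1.06 in heavy over light polysome, 0.69 in heavy polysome over monosome and 0.96 in heavy polysome over free. In heavy over light polysome 24 of the 41 were called higher, against 26.0% of all tested genes, and 1 lower, against 28.3%. In heavy polysome over monosome 18 were called higher, against 21.0%, and 4 lower, against 27.0%. Above the median gene lay 32 of the 41 in heavy over light polysome, against 49.9% of all tested genes. In heavy polysome over monosome 23 did, against 50.0%. In heavy polysome over free 27 did, against 49.8%, where genes without a free count rest on the 0.5 added. The SR medians were 0.94, 0.75 and 0.80 in these comparisons, and the SF3 medians 0.71, 0.46 and 0.10. RBMX, an hnRNP G protein outside the naming rule, had 25.3, 50.4, 42.7 and 474 CPM from free to heavy polysome and lay at 2.87 (2.51 to 3.28). PRPF19, the ubiquitin ligase of the spliceosome, had 8.44, 17.3, 46.0 and 351 CPM and lay at 2.33 (1.98 to 2.72).

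The gene called lower in heavy over light polysome was PHF5A, a small zinc-finger subunit of SF3b with a coding length of 330 nucleotides. It had 81.6, 319, 632 and 168 CPM and lay at -2.50 (-2.70 to -2.30), with its peak in the light polysome pool like SF3B5 and SF3B6. RBM17, a U2-associated splicing factor of 1203 coding nucleotides, was the next lowest among those with at least 100 counts in the pair, at -0.38 (-0.62 to -0.14), and was not called.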

How the data were processed

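The table deposited by the authors holds unscaled counts for each gene symbol and pool. The submitters' processing notes name minimap2 2.15, Subread 1.6.2 with featureCounts, and hg38. Which annotation was used, and how strand and reads on several genes or places were handled, was not given in the sources used here. Direct RNA sequencing has no PCR step. No column of values was left unused.

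Genes with 30 or more counts over the 4 libraries were kept (7527). Ratios of shares, with 0.5 added to each count, were taken relative to the median gene, and 95% intervals are exact conditional binomial ones (Clopper-Pearson). With 1 library per pool no replicate test, edgeR's quasi-likelihood test included, could be fitted. The calculation was tested on simulated data. Gene models came from GENCODE 29 and matched 99.2% of tested genes. They may differ from those used for counting.

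The members, the list of other splicing genes and the naming rule were chosen with earlier results of these data known. CPM, or the count, in all pools is written out for the 4 most counted members of each family, those at the ends of 3 comparisons with at least 100 counts in the pair, and textbook members. Alternatives were other minimum counts, pseudocounts, depths, member sets and scalings. Tools were Python 3.11.15, numpy 2.4.6, pandas 2.3.3, scipy 1.17.1, matplotlib 3.10.9, Biopython 1.88, R 4.3.3, edgeR 4.0.16 (TMM factors) and DESeq2 1.42.0 (size factors).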

Additional observations from a re-analysis of the deposited data

How the results depend on the processing

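The order hnRNP, SR, SF3 of the family medians was the same under all 11 alternatives in heavy polysome over light polysome, heavy polysome over monosome and heavy polysome over free, and the hnRNP median was the lowest of the 3 in light polysome over monosome under all 11. In monosome over free that order held under 8 of 11. Plain CPM ratios, TMM and DESeq2 scaling shift every gene by the same amount, so under them no order could change. With a minimum of 10 or no minimum the SR and SF3 members stayed the same, and the sets with copies left out changed hnRNP members only. Of these sets, the planned one left out HNRNPA1L2 but kept HNRNPA1P48 (20 hnRNP members), and the other left out both (19). In all of these settings the order of SR and SF3 was fixed too, so the agreement there is not support for it. Every member had a count outside the free library, so the floor of 3 counts could not change an order in comparisons without that library. In those comparisons only the minimum of 100, the pseudocount of 1 and the thinning could have changed the order of SR and SF3. No median changed sign among those whose interval over members excluded 0. The limit is depth in the free library, where most members had fewer than 10 counts, and the cause of each shift below was not tested unless its construction shows it. No paired analysis was possible because each pool has 1 library, and for the same reason no library could be left out.

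As plain CPM ratios, which differ by the shift of the median gene, the hnRNP, SR and SF3 medians were 3.20, 2.49 and 2.20 in heavy polysome over monosome, -0.0074, 0.95 and 0.80 in light polysome over monosome, 1.59, 1.23 and 1.22 in monosome over free and 4.74, 3.85 and 3.15 in heavy polysome over free. In heavy over light polysome hnRNP reached 2.79 and SF3 1.30. Members called higher then numbered 38 in heavy polysome over monosome, 12 in light polysome over monosome, 19 in monosome over free and 40 in heavy polysome over free, and those called lower numbered 1, 0, 1, 0 and 0 in heavy over light, heavy over monosome, light over monosome, monosome over free and heavy over free.

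In heavy polysome over free the hnRNP median was 2.18 with TMM, 2.152 with a pseudocount of 1, 2.78 with no minimum count and 2.74 with genes without a count at a floor of 3. The SR median was 1.29 with TMM, 1.15 with DESeq2 size factors, 1.13 with a pseudocount of 1, 1.23 with a minimum of 10, 1.93 with no minimum and 1.70 at the floor, and the SF3 median, 0.10 under the settings used, was 1.23 with no minimum, 1.16 at the floor and -0.11 after thinning. The 15 members called higher became 25 (TMM), 24 (DESeq2), 26 (pseudocount of 1), 24 (minimum of 10), 31 (no minimum) and 30 (floor), and the 2 called lower became 1 with no minimum and at the floor.

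In monosome over free the SR median was 0.66 with no minimum. The 4 members called higher became 8 with a pseudocount of 1, 11 with no minimum, 11 at the floor, 2 with a minimum of 100 and 2 after thinning to the shallowest library, and the 1 called lower (SRSF3) became 0 with TMM, a pseudocount of 1, a minimum of 10, no minimum and the floor, and 4 after thinning. With no minimum, 25 members in place of 16 were called higher in heavy polysome over monosome and 6 in place of 11 lower in light polysome over monosome. The 1 called higher in light polysome over monosome became 3 with no minimum or a minimum of 10 and 2 after thinning. The SR mean position was 2.21 with totals that leave out ribosomal protein genes, where that of all tested genes was 2.03. The floor and the set without HNRNPA1L2 and HNRNPA1P48 were chosen after seeing the data, and without those copies the hnRNP median in heavy over light polysome was 2.30.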
